A study of Mus musculus with 4 samples.

Results

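The genes described here encode the mouse egg coat and proteins that oocytes secrete or store for fertilization: the zona pellucida glycoprotein genes Zp1, Zp2 and Zp3, the ovastacin gene Astl and the oocyte-secreted protein gene Oosp1. They were taken by symbol, and all 5 were found, each on 1 row, among the 23309 gene symbols of the deposited files. The study sequenced mRNA of oocytes of the ICR strain in 4 libraries, each of 60 pooled cells from females 21 to 23 days old. The groups were wild-type GV, Erk-/- GV, wild-type MII and Erk-/- MII, with 1 library each. GV oocytes hold an intact germinal vesicle, the nucleus before meiosis resumes, and MII oocytes are mature eggs at metaphase of the second division. The protocols name the hormones PMSG and hCG for all groups, without saying which applied to which library, and they name Btg4-/- females where the sample labels give Erk-/-. The labels give neither the deleted Erk gene nor its exons, nor any Cre line, and single oocytes are mentioned in the design text where the protocol gives pools. The series asks how the breakdown of maternal mRNA depends on ERK, a kinase that is active as oocytes mature.

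The zona pellucida is the glycoprotein shell that a growing oocyte builds around itself, and sperm must bind and cross it. ZP2 and ZP3 form its filaments and ZP1 links them. Ovastacin is a protease stored in cortical granules under the egg surface. It is released at fertilization and cuts ZP2, after which sperm no longer bind the zona. OOSP1 is a small secreted protein made by oocytes, related to PLAC1 of the placenta. A fully grown oocyte has finished its zona and makes almost no new mRNA until after fertilization, and it breaks down much of its stored mRNA as it matures.

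The mRNAs of the 3 zona genes all have a very short 3' end after the stop codon, unlike those of Astl and Oosp1. In GENCODE M21 (GRCm38), 1 transcript per gene was taken. The 3' untranslated region (UTR) measured 34 bases in Zp1, 49 in Zp2 and 13 in Zp3. It measured 877 bases in Astl and 230 in Oosp1, and its median was 831 over the 20652 protein-coding genes with an annotated 3' UTR. Only 2.60% of those genes had one of 1 to 50 bases, and 0.261% had one shorter than that of Zp3. Other annotated transcripts had 173 bases in Zp2, 331 in Oosp1 and 876 and 875 in Astl. Which ones these libraries hold cannot be read from gene-level values. The 30-base stretches around the poly(A) signal are shown because they are most or all of the zona 3' UTRs. Each is the last 30 bases of the mRNA, except for Zp2, where it starts 38 bases from the end. Capitals mark the letters AATAAA, the usual signal for cleavage and polyadenylation.
Zp1: actcAATAAAccattgtttgaaaactcctg
Zp2: AATAAAgagactgcagttaaactcttgtct
Zp3: tatcccttccgcAATAAAagaagaaactca
Astl: ggtagaAATAAAgttgggtgtttgcttcat
Oosp1: ctaatgatcataaatagttattttttcttg
In Zp3 the stop codon (bases 16 to 14 from the end) lies inside AATAAA, which starts 18 bases from the end, so that the signal is partly coding sequence. AATAAA started 26 bases from the end in Zp1, 38 in Zp2 and 24 in Astl. The letters AATAAA or ATTAAA were not found in the last 40 bases of Oosp1, and were found there in 69.2% of 21648 protein-coding genes. The sense-strand letters TTTTAT and TTTTAAT, the core of the element that CPEB binds to control cytoplasmic polyadenylation, were not found in the last 100 bases of any of the 5 mRNAs taken. They were found in 16.4% of genes. In the zona mRNAs this window reaches into the coding sequence. The ends of the other annotated transcripts were not searched.

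**Figure D1:**
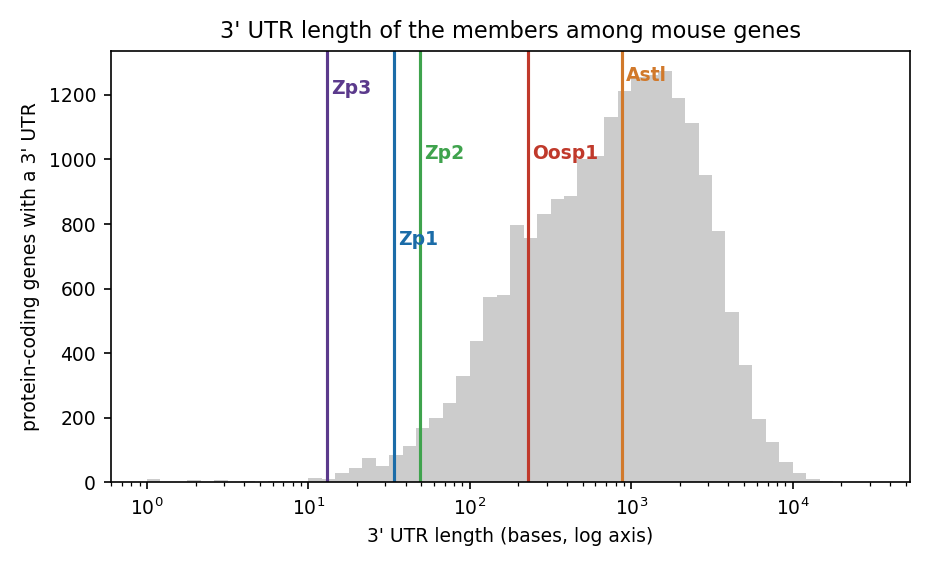
Grey bars show the number of protein-coding genes by 3' UTR length in bases (log axis, genes without an annotated 3' UTR left out), and coloured lines mark the 5 genes. The zona genes, at 13 to 49 bases, stand at the short end, Oosp1 is at 230 and Astl is at 877, near the median of 831.

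The libraries were checked first. Mapk3, which encodes ERK1, was at 333 FPKM (wild type) and 52.3 (Erk-/-) in GV oocytes. In MII oocytes it was at 25.7 FPKM (wild type) and 34.3 (library labelled Erk-/-), so its level did not go with the label at MII, and that library is named by its label throughout. FPKM divides a gene's sequenced fragments by transcript length and by the library's total, so levels of different genes can be set side by side within a library. It does not give mRNA per oocyte, and in pooled cells a lower share of cells with a message and less of it per cell cannot be told apart. All 10 oocyte markers were above 1 FPKM in each library, and their sum was 13885 FPKM in GV oocytes of wild type, 10466 in those of Erk-/-, 7619 in wild-type MII and 9464 in the remaining library, so it was lowest where the zona genes were lowest. Gdf9 alone made up 5635 FPKM of the sum in wild-type MII, against 4139 in wild-type GV, so the sum hides the other markers. On FPKM + 1, 8 of the 10 were at least 2-fold lower at MII than at GV in wild type, and none higher. Padi6 was 72.7-fold and Npm2 50.7-fold lower there in FPKM. At MII, 7 of the 10 were at least 2-fold higher in the library labelled Erk-/- than in wild type, and none lower. The part of these markers in the results was not tested. Of 16 granulosa and cumulus markers, 10 to 13 were listed at 0 in a library, among them Fshr, Foxl2 and Amh in all 4, and their sum ranged from 14.7 to 29.4 FPKM. Most of that sum came from 3 genes. Cyp19a1, which encodes aromatase, was at 15.5 FPKM in GV oocytes of wild type and listed at 0 in those of Erk-/-, and at 21.8 (wild type) and 10.8 (library labelled Erk-/-) at MII. Nr5a2 was at 6.84, 16.9955, 2.24 and 1.20 FPKM and Inha at 3.801, 11.3, 0 and 0.070 in the same order. The part of other cells in the results was not tested. Of 9 markers of other ovarian and blood cells, 7 or 8 were listed at 0, and Pecam1 made up most of their sum of 32.3 to 64.3 FPKM. Of 7 sperm and testis markers, 5 or 6 were listed at 0, with a sum of 1.55 to 16.0 FPKM. The depth is unknown, because FPKM holds no counts. The width of the authors' bounds over 2483 genes gave depths, relative to GV oocytes of wild type, of 0.804 (Erk-/- GV), 1.04 (wild-type MII) and 1.001 (MII library labelled Erk-/-). These depths hold only if the bounds narrow with depth in the same way in all libraries, which was not tested. With 1 library per group, every difference below is between single libraries, has no replicate check and has no p-value.

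In GV oocytes the zona mRNAs were among the most abundant messages of the cell. There, Zp3 was at 4768 FPKM (wild type) and 3811 (Erk-/-), and in MII oocytes at 151 (wild type) and 533 (library labelled Erk-/-). It ranked 2nd of all genes in both GV libraries, 495th in wild-type MII and 98th in the other MII library. Zp2 was at 2687, 1819, 78.7 (bounds 69.7 to 78.9) and 449 FPKM in the same order. Its rank went from 8th and 10th in the GV libraries of wild type and Erk-/- to 960th and 131st at MII. Zp1 was at 1238, 1103, 60.0 (bounds 52.1 to 61.2) and 305 FPKM, with ranks of 27th, 25th, 1213th and 208th. For each zona gene the order of the libraries was the same: wild-type GV highest, then Erk-/- GV, then the MII library labelled Erk-/-, then wild-type MII. Together the zona genes took 1.92% (wild type) and 1.60% (Erk-/-) of all summed FPKM at GV. At MII they took 0.0722% (wild type) and 0.311% (library labelled Erk-/-).

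Astl and Oosp1 had other profiles. Astl was at 598 FPKM (wild type) and 559 (Erk-/-) at GV, and at 505 (wild type) and 571 (library labelled Erk-/-) at MII, so the libraries lay close together. Its rank stayed between 79th and 102nd. Oosp1 was at 2299, 1581, 4760 and 3996 FPKM in the same order, so both MII libraries stood above both GV libraries. It ranked 13th and 14th at GV and 6th in both MII libraries. The sum of Astl and Oosp1 in wild type was 2897 FPKM at GV and 5265 at MII, while that of the zona genes was 8693 and 290.

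**Figure D2:**
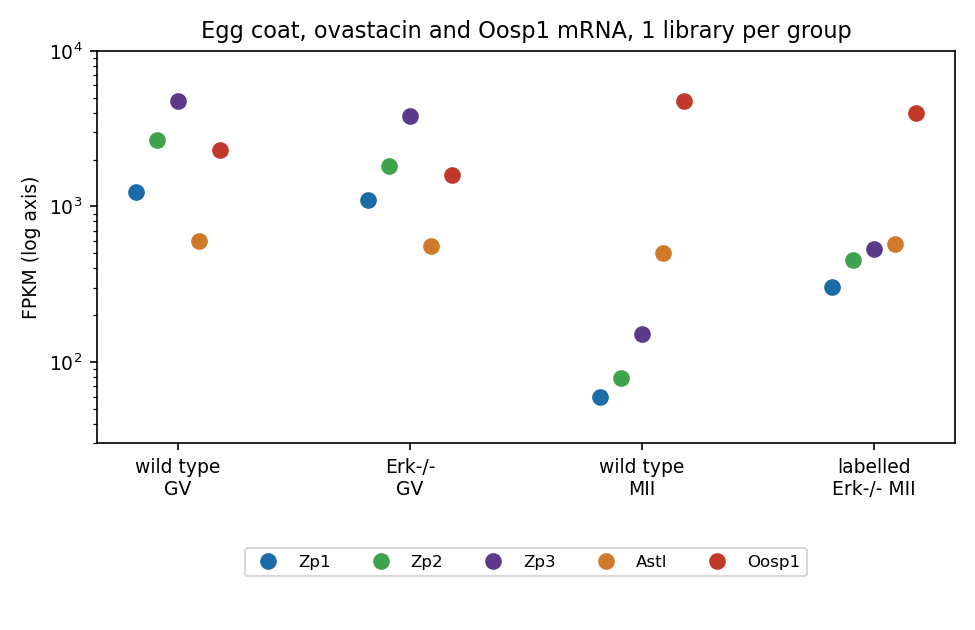
Each point is the FPKM (log axis) of 1 gene in 1 library, with the 4 libraries along the horizontal axis. Zp1, Zp2 and Zp3 are lowest in wild-type MII at 60.0 to 151 FPKM, Astl stays at 505 to 598, and Oosp1 is highest at MII with 4760 and 3996.

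The authors' bounds were of limited use for these genes. Of the 20 values, 18 lay above their own upper bound, by 4.22% to 22.1% of that bound (most for Oosp1), and only the wild-type MII values of Zp1 and Zp2 lay within. The half-width of the bounds was 1.03% to 8.01% of their midpoint. The spread between batches of oocytes is unknown, so the order of neighbouring genes within a library is given as measured. In both GV libraries the order was Zp3, Zp2, Oosp1, Zp1, Astl. In both MII libraries it was Oosp1, Astl, Zp3, Zp2, Zp1, and in the MII library labelled Erk-/- Astl and Zp3 stood close, at 571 and 533 FPKM.

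Ratios within a library need no scaling between libraries. Oosp1 stood at 0.482 times Zp3 in wild-type GV and 0.415 times in Erk-/- GV. At MII the same ratio was 31.6 (wild type) and 7.49 (library labelled Erk-/-). Astl stood at 0.125 and 0.147 times Zp3 in the GV libraries of wild type and Erk-/-, and at 3.35 and 1.07 times at MII. The zona genes kept closer to each other. Zp3 was 1.77 (wild type) and 2.10 (Erk-/-) times Zp2 at GV, and 1.92 (wild type) and 1.19 (library labelled Erk-/-) times at MII. Zp2 was 2.17, 1.65, 1.31 and 1.48 times Zp1 in that order, and Zp3 was 3.85, 3.46, 2.51 and 1.75 times Zp1. The ratios of Zp3 to Zp2 and to Zp1 were both lowest in the MII library labelled Erk-/-.

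Maturation was compared first in wild type, as log2 of (FPKM + 1) at MII minus that at GV. Zp1, Zp2 and Zp3 were lower at MII, with log2 ratios of -4.34, -5.08 and -4.97, or 20.6-fold, 34.1-fold and 31.6-fold lower in FPKM. Astl had a log2 ratio of -0.24, and this was positive under median-of-ratios scaling (0.58) and upper-quartile scaling (0.63). Oosp1 was 2.07-fold higher at MII (log2 1.05), just past the 2-fold mark. Over the alternatives its log2 ratio ranged from 0.999, with the least favourable of the authors' bounds, to 1.92. The background was the 9990 genes whose mean over the libraries reached 1 FPKM, among them all 5 genes here. Of these, 49.6% were lower and 20.6% higher by 2-fold or more. The median over them was -0.97. So 3 of the 5 genes were lower, 1 was higher, and the median of the 5 was -4.34. Abundant genes were more often lower. Of 111 tested genes at 500 FPKM or more in wild-type GV, 77 were at least 2-fold lower and 17 higher, with a median of -2.33. Among these, 26 had a lower ratio than Zp1, 17 than Zp2 and 18 than Zp3. This group, which holds all 5 genes, was picked by the GV level that also enters the ratio. Median-of-ratios scaling shifted the median over all tested genes by 0.67, with 2957 genes higher and 4036 lower. Of genes 2-fold apart, 42.3% were then higher, against 29.3% as deposited. The ratios of Zp1, Zp2 and Zp3 were at most -3.48 under every alternative tried.

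In the libraries labelled Erk-/-, the zona genes were again lower at MII, but by less. The log2 ratios were -1.85 for Zp1, -2.01 for Zp2 and -2.83 for Zp3, or 3.62-fold, 4.05-fold and 7.15-fold lower in FPKM. Astl was at 102% of its GV level (log2 0.030, and -0.038 with the least favourable bounds). Oosp1 was 2.53-fold higher (log2 1.34). Of all tested genes 35.6% were at least 2-fold lower and 22.9% higher, with a median of -0.26. Upper-quartile scaling moved that median by 0.26 and gave 2863 higher and 2916 lower genes, or 49.5% higher among those apart, against 39.1% as deposited. The median of the 5 genes was -1.85, and 3 were lower and 1 higher, as in wild type. Of 97 tested genes at 500 FPKM or more in Erk-/- GV, 38 were at least 2-fold lower and 17 higher, with a median of -0.60. Among these, 23 had a lower ratio than Zp1, 19 than Zp2 and 8 than Zp3.

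The comparison of genotypes within a stage uses the same 4 libraries again. At GV none of the 5 genes was 2-fold apart. The log2 ratios of Erk-/- over wild type were -0.17 for Zp1, -0.56 for Zp2, -0.32 for Zp3, -0.10 for Astl and -0.54 for Oosp1. All 5 lay below 0 as deposited, while Astl was at 0.0097 with summed FPKM set equal. Of all tested genes 18.4% were at least 2-fold higher and 22.9% lower at GV, with a median of -0.06. Among the 5 the median was -0.32.

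At MII the zona genes were higher in the library labelled Erk-/- than in wild type. Zp1 was 5.07-fold higher (log2 2.32), Zp2 5.71-fold (2.50) and Zp3 3.54-fold (1.82). Astl was at 113% of the wild-type level (log2 0.18, and -0.36 under median-of-ratios and -0.20 under upper-quartile scaling). Oosp1 was at 84.0% (log2 -0.25). Of all tested genes 31.4% were at least 2-fold higher and 7.43% lower, with a median of 0.31, so 3 of 5 higher and none of 5 lower is read against those shares. The median of the 5 was 1.82. Median-of-ratios scaling shifted the median over all tested genes by -0.31, with 2462 genes higher, 1704 lower and 59.1% higher among those apart against 80.9% as deposited. The zona ratios were at least 1.28 under every alternative tried.

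**Figure D3:**
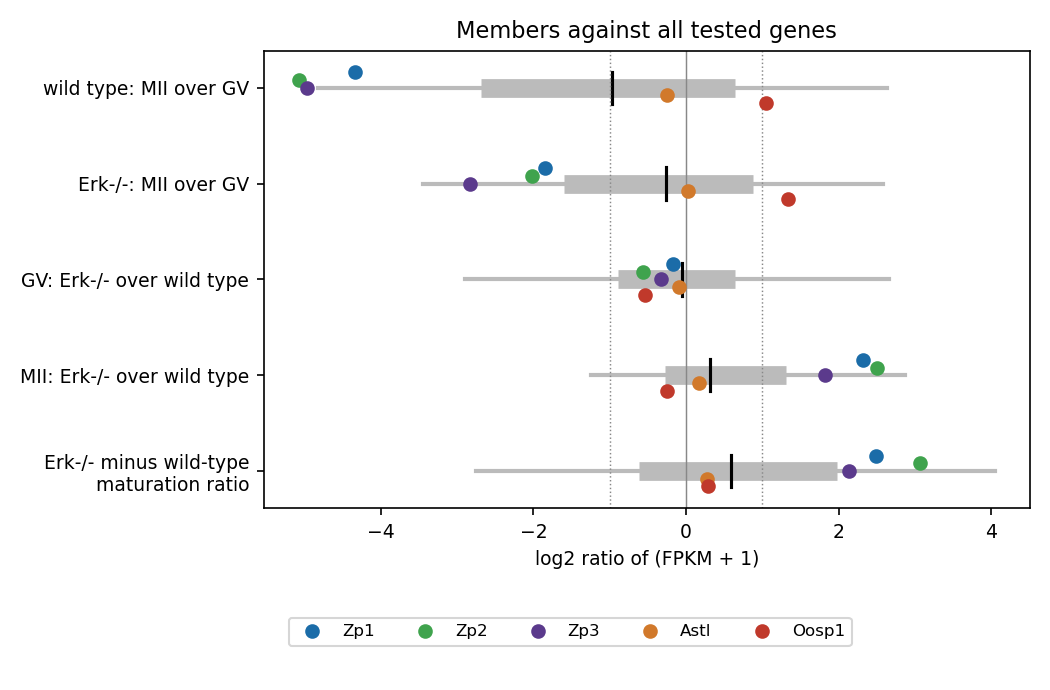
Coloured points are the log2 ratios of the 5 genes in each comparison, and grey shows all tested genes, with the thick bar from the 25th to the 75th percentile, the thin line from the 5th to the 95th and the black tick at the median. Dotted lines mark 2-fold. The zona genes lie between -5.08 and -4.34 for wild-type maturation and between 1.82 and 2.50 for genotype at MII.

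The maturation ratios were then set side by side in the genotypes. At MII Zp1 was at 4.85% (wild type) and 27.6% (Erk-/- labels) of its GV level, a log2 difference of 2.49 on the FPKM + 1 scale. Zp2 was at 2.93% and 24.7% (difference 3.06), and Zp3 at 3.16% and 14.0% (difference 2.14). Astl (0.27) and Oosp1 (0.29) lay within 2-fold of no difference, and both differences were negative under median-of-ratios scaling (-0.35 and -0.34). Over all tested genes 41.2% had a difference of at least 2-fold upward and 18.8% downward, with a median of 0.59. Zp2 stood above 87.9% of tested genes, Zp1 above 81.8% and Zp3 above 77.4%. So a share of 3 in 5 upward is to be read beside 41.2% of all genes. Median-of-ratios scaling shifted the median over all tested genes by -0.49 and left 55.2% upward among genes 2-fold apart, against 68.7% as deposited. The 3 zona differences were at least 1.52 under every alternative tried.

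**Figure D4:**
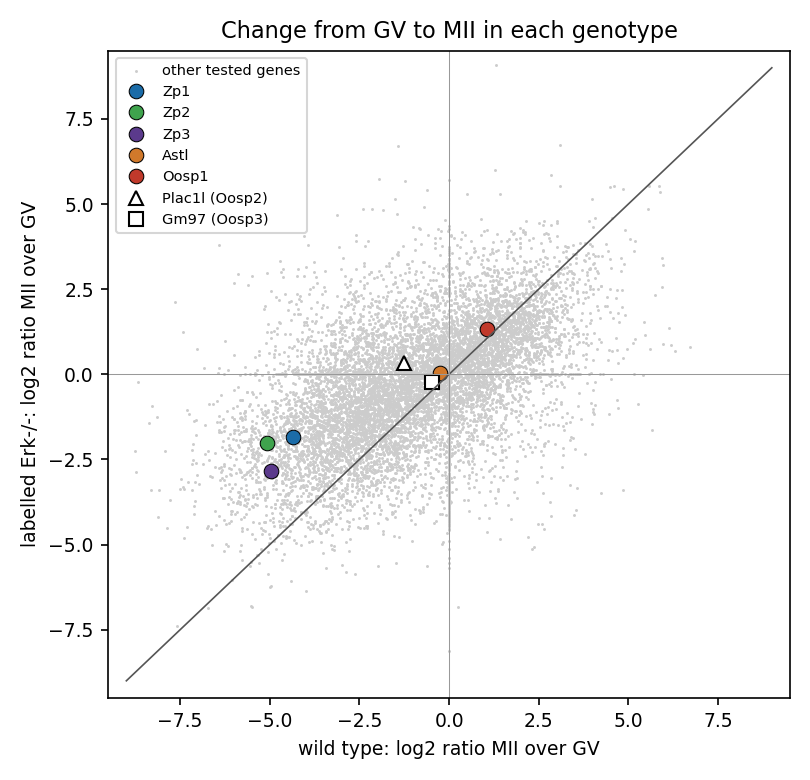
Each grey dot is a tested gene, with its log2 ratio of MII over GV in wild type (horizontal axis) and in the libraries labelled Erk-/- (vertical axis), and the line marks equal ratios. Zp1, Zp2 and Zp3 lie above the line at the lower left, Astl and Gm97 lie near the origin, Plac1l is below 0 in wild type and above 0 in the other genotype, and Oosp1 is above 0 on both axes.

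Short 3' UTRs were examined across the whole table because the zona genes share them. The limit of 50 bases was chosen after the zona lengths were known. Of the tested genes, 9032 had an annotated 3' UTR, and in 151 it was 1 to 50 bases long. In wild type, 70.2% of these 151 genes were at least 2-fold lower at MII and 7.95% higher, with a median of -2.51. Among the 8881 genes with a longer 3' UTR, 49.6% were lower and 20.6% higher, with a median of -0.97. In the libraries labelled Erk-/- the medians were -1.23 and -0.25, with 54.97% and 35.2% lower. These shares describe the annotation and these libraries. Expression level and gene class were not matched between the groups, and their part in the difference was not tested.

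Oosp1 lies in a row of related genes on chromosome 19, which differed among themselves. In mm9 coordinates, Plac1l (named Oosp2 in RefSeq, 11721774 to 11735049) ends 6.90 kb before Oosp1 (11741950 to 11765541). Gm97 (Oosp3 in RefSeq, 11771545 to 11786348) starts 6.004 kb after it. Plac1l was at 337 FPKM (wild type) and 201 (Erk-/-) at GV, and at 141 (wild type) and 253 (library labelled Erk-/-) at MII. Its MII level was thus 41.9% (wild type) and 126% (Erk-/- labels) of that at GV. Gm97, named after its values were seen, was at 2087, 1493, 1503 and 1280 FPKM in the same order, with 72.0% and 85.7% of its GV level at MII. So the 3 neighbours, all abundant in GV oocytes, were lower, within 2-fold and higher at MII in wild type as deposited. Under median-of-ratios and upper-quartile scaling Plac1l was no longer 2-fold lower. The Oosp3 mRNA of GENCODE was the only one of the 3 with TTTTAT in its last 100 bases, where it occurs at 2 places. Zp1 lies on the same chromosome (10988787 to 10995091), 747 kb before Oosp1. Of the 23 genes between Zp1 and Plac1l, 18 were listed at 0 in all libraries. No gene in the files overlapped Zp1, Zp2 (chromosome 7, 127275875 to 127288804), Zp3 (chromosome 5, 136455975 to 136464494), Astl (chromosome 2, 127164375 to 127183387) or Oosp1.

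The list of egg coat genes and OOSP and PLAC1 relatives held 11 symbols, 9 of them in the files and 8 tested. Beyond Zp1, Zp2, Zp3 and Oosp1 the tested ones were Plac1l, Gm97, Plac1 and Zpld1. In wild-type maturation 1 of these 4 was higher (Zpld1, listed at 0 except for 4.27 FPKM in wild-type MII) and 1 lower (Plac1l), beside 20.6% and 49.6% of all tested genes. The median of the 4 was -0.16 against -0.97 for all genes, and under median-of-ratios scaling it was 0.63 and none of the 4 was 2-fold lower. In the MII comparison of genotypes none of the 4 was higher and 2 were lower (Zpld1 and Plac1) in the library labelled Erk-/-, beside 31.4% and 7.43% of all tested genes, with a median of -1.16 against 0.31. Without genes listed at 0 in a library, which leaves out both, that median was 0.30. Plac1, listed at 0 in Erk-/- GV, was at 8.51, 9.62 and 1.51 FPKM in wild-type GV, wild-type MII and the MII library labelled Erk-/-. Zp4-ps, the pseudogene of a further zona gene in mouse, was listed at 0 in all libraries but the MII library labelled Erk-/- (3.69 FPKM).

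Fetub, the gene of fetuin-B, a plasma protein that inhibits ovastacin, had its own mRNA in these oocyte libraries. It was at 113 FPKM (bounds 107 to 120) in wild-type GV and 94.2 (87.7 to 101) in Erk-/- GV. At MII it was at 18.1 (15.7 to 20.4) in wild type and 43.5 (39.6 to 47.5) in the library labelled Erk-/-. Its MII level was 15.9% (wild type) and 46.2% (Erk-/- labels) of that at GV, beside 84.5% and 102% for Astl. Of the 7 genes listed with ovastacin as its inhibitor or as other astacin-family proteases, 3 were tested: Astl, Fetub and Tll1. Tll1, named after its values were seen, stayed under 10 FPKM in all libraries.

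Genes of cortical granule movement and exocytosis were examined as a list of 22, of which 17 were tested. In wild type 9 of 17 were at least 2-fold lower at MII and 1 higher (Snap23, 8.79 and 19.4 FPKM, named after its values were seen), beside 49.6% and 20.6% of all tested genes. The share lower was thus near that of all genes. The median was -1.92 against -0.97, and it was -1.21 under median-of-ratios scaling, -0.94 without genes listed at 0 (6 of 13 lower) and -0.74 with a pseudocount of 10. In the libraries labelled Erk-/- 5 of 17 were lower and 2 higher (Vamp3 and Rab11a), beside 35.6% and 22.9%, with a median of -0.026 that was 0.12 under median-of-ratios scaling. Calr, which encodes the calcium-binding chaperone calreticulin, was at 448 FPKM (wild type) and 425 (Erk-/-) at GV, and at 21.6 and 168 at MII. Vamp8, a vesicle SNARE gene, was at 47.9, 49.8 and 48.9 FPKM in wild-type GV, Erk-/- GV and the MII library labelled Erk-/-, and at 0.144 in wild-type MII. Napa, whose protein helps to take SNARE complexes apart, was at 29.8 and 44.9 FPKM at GV, was listed at 0 in wild-type MII and was at 14.9 in the MII library labelled Erk-/-. Vamp3, another vesicle SNARE gene, was at 18.6, 9.21 and 17.5 FPKM but at 0.180 in Erk-/- GV. At MII 7 of the 17 were higher in the library labelled Erk-/- and 1 lower (Marcks), beside 31.4% and 7.43%, with a median of 0.85 against 0.31 that was 0.39 under median-of-ratios scaling. At GV 1 was higher (Rab3a) and 5 lower, beside 18.4% and 22.9%, with a median of -0.21 against -0.06.

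Of 9 transcription factor genes that act on zona genes or in the oocytes that express them, 8 were tested and Sohlh1 was listed at 0 throughout. Figla, whose protein binds E-boxes in zona promoters, was at 13.8 FPKM (wild type) and 32.1 (Erk-/-) at GV, and at 2.10 (wild type) and 6.91 (library labelled Erk-/-) at MII. Nobox, an oocyte homeobox gene, was at 335, 309, 6.40 and 36.5 FPKM in that order. Lhx8, a LIM homeobox gene, was at 95.1, 135, 3.91 and 44.7. Sohlh2, a helix-loop-helix gene of early oocytes, was listed at 0 in the GV libraries and at 11.5 and 13.5 FPKM in MII oocytes. So Figla, Nobox and Lhx8 were all lowest in wild-type MII, as the zona genes were, and only Nobox of these 3 also had the zona order of the other libraries, since Figla and Lhx8 were highest in Erk-/- GV. In wild type 5 of 8 were lower at MII and 1 higher, beside 49.6% and 20.6% of all tested genes, with a median of -1.71 against -0.97. That median ranged from -3.27 to -0.71 over the alternatives. In the libraries labelled Erk-/- 4 of 8 were lower and 2 higher (Sohlh2 and Tbpl2), beside 35.6% and 22.9%, with a median of -0.92 against -0.26. At MII 4 were higher in the library labelled Erk-/- and 1 lower (Tcf3), beside 31.4% and 7.43%, with a median of 0.71 against 0.31 that ranged from 0.17 to 1.85 over the alternatives. At GV 1 was higher (Figla) and 2 lower (Tcf12 and Tbpl2), beside 18.4% and 22.9%.

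The promoter window of Zp3 is shown because Figla, the E-box-binding factor of zona genes, was measured here. RefSeq promoters were at hand for 3 of the 5 genes, Zp3, Astl and Oosp1. Capitals mark the E-box letters CANNTG (N for any base) in the 250 bases before the start site (GRCm38.p6, plus strand, chr5:135979855-135980104). The pattern CANNTG, though not each match to it, reads the same on both strands.
Zp3: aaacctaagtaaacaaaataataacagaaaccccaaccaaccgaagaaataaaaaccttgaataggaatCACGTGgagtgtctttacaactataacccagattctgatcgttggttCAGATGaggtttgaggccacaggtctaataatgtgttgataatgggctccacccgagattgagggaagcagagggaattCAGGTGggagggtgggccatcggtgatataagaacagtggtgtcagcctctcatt
The 3 matches start 181, 134 and 55 bases before the start site. The Oosp1 window held 5 matches, and the windows of the listed Astl start sites held 0 and 3. CANNTG was found in 66.2% of 32851 windows of this length, with a median of 1 match, and CACGTG in 6.02%. A match is a description of the sequence and not a binding site.

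The genes with profiles most like each of the 5 were found by the distance between 4 values of log2(FPKM + 1), centred on the gene's own mean, over the 5277 genes whose mean reached 10 FPKM. Nearest to Zp1 were D7Ertd443e, Dctn2 and Os9, with distances of 0.13 to 0.16. Nearest to Zp2 were Mrpl38, Pdlim7 and Ipo9 (0.18 to 0.22), and nearest to Zp3 were Tyms, Fcf1 and Hdgfrp2 (0.07 to 0.25). Most of these were at 0 or under 1 FPKM in wild-type MII, and in GV oocytes each stayed at or below the 141 FPKM of Fcf1. At values that low, log2(FPKM + 1) is set mostly by the added 1. The distances from the zona genes and the ranks below depend on that choice. Counted from Zp1, Zp2 came 103rd and Zp3 330th. From Zp2, Zp1 came 62nd and Zp3 97th, and from Zp3, Zp2 came 88th and Zp1 220th. Nearest to Astl were Egln1, Cct8 and Slc7a2 (0.08 to 0.10), and nearest to Oosp1 were Vps35, Idi1 and Rad21 (0.06 to 0.09). Rad21, for instance, was at 59.1, 37.9, 116 and 94.5 FPKM in wild-type GV, Erk-/- GV, wild-type MII and the MII library labelled Erk-/-. With 4 libraries, such likeness is a description only. Gapdh, a reference gene, was at 59.0, 32.4, 22.2 and 25.9 FPKM and Actb at 72.5, 147, 4.42 and 31.7, so neither was level across these libraries.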

How the data were processed

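mRNA was measured by paired-end Illumina sequencing, per the labels' protocols. The authors deposited FPKM with a lower and an upper bound per gene, per the file headers. CASAVA 1.8, TopHat and mm9 are named in the submitters' processing notes. For the program that computed FPKM, its annotation, the confidence level of the bounds and strandedness: not given in the sources used here. In all, 23813 rows were summed to 23309 symbols (260 symbols on several rows), and 319 rows per library carry the status LOWDATA. Reads of near-identical genes may have been split in ways the values do not show.

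From these values log2 ratios of FPKM + 1 were computed in Python 3.11.15 with pandas 2.3.3, over the 9990 genes whose mean reached 1 FPKM, and a 2-fold ratio was counted as higher or lower. This scale understates changes of low genes. The arithmetic was checked on simulated data without noise, which says nothing about low values, scaling or the spread between libraries. The labels give 1 library per group, so no test was made and no replicates exist. The 5 genes and the gene lists were chosen with earlier results of these data known. Named genes were the 5, up to 4 per list with the largest absolute ratio and at least 10 FPKM in a library, the 3 nearest in profile to each of the 5, Mapk3, Gapdh and Actb. Fshr, Foxl2, Amh, Gdf9, Dppa3, Cd81, Zp4-ps, Zpld1, Plac1, Rab11a, Rab3a, Marcks, Sohlh1, Tbpl2, Tcf12 and Tcf3 fall outside this rule and were named after their values were seen. Locus starts were taken as counted from 0, and 1 was added. UTRs and promoters are from GRCm38, used for sequence and length only. Alternatives were pseudocounts of 0.1 and 10, a 10 FPKM filter and none, 3 scalings, leaving out genes listed at 0 or on several rows, and, chosen after seeing the data, 2 uses of the authors' bounds.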

Additional observations from a re-analysis of the deposited data

Results flagged for a closer look

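Several genes had ratios of opposite sign in the 2 stages or the 2 genotypes. Each direction rests on 1 library a side, and the difference between them was not tested. The share of all tested genes with such a change of sign was not counted. Over all tested genes the median log2 ratio of Erk-/- over wild type was itself -0.06 at GV and 0.31 at MII. Some of the GV ratios below lie close to 0, such as that of Folr4. The log2 ratio of Erk-/- over wild type was below 0 at GV and above 0 at MII for Zp1 (-0.17 and 2.32), Zp2 (-0.56 and 2.50), Zp3 (-0.32 and 1.82) and Astl (-0.10 and 0.18). The same held for Plac1l (-0.74 and 0.84), Fetub (-0.26 and 1.22), Calr (-0.076 and 2.90), Nobox (-0.12 and 2.34), Pdia3 (-0.21 and 2.87) and Folr4 (-0.020 and 1.98). It also held for Vamp3 (-4.05 and 0.85), Spcs1 (-1.23 and 5.32) and Itgb1 (-0.50 and 2.01), while Itga6 went the other way (0.49 and -0.077). The log2 ratio of MII over GV was below 0 in wild type and above 0 in the libraries labelled Erk-/- for Astl (-0.24 and 0.030), Plac1l (-1.25 and 0.33), Vamp3 (-0.94 and 3.97), Spcs1 (-5.99 and 0.56) and Itgb1 (-0.89 and 1.63). The Spcs1 values rest on a wild-type MII library in which the gene is listed at 0.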

How the results depend on the processing

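Of 270 values of the 5 genes under the alternatives, 259 kept their direction and their side of the 2-fold mark, including all of Zp1, Zp2 and Zp3. Changing the FPKM filter, or leaving out genes listed at 0 or on several rows, only alters which genes are counted. Those settings cannot move a ratio of these 5 genes, so their part of the 259 was fixed in advance. Astl changed sign in wild-type maturation under median-of-ratios (0.58) and upper-quartile (0.63) scaling, in Erk-/- maturation with the least favourable bounds (-0.038), at GV with summed FPKM set equal (0.0097), at MII under the first 2 scalings (-0.36 and -0.20) and in the difference of ratios (-0.35 and -0.19). Oosp1 changed sign in the difference of ratios under the same scalings (-0.34 and -0.17) and was at 0.999, short of 2-fold, with the least favourable bounds in wild-type maturation. The cause was not tested. The bounds as first planned gave no ratio, since too few values lay within them. No paired analysis was possible because each group has 1 library.

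Counts of genes at least 2-fold higher and lower over the whole table depended on the settings. A pseudocount of 10 gave 1098 and 2883 in wild-type maturation, 921 and 1881 in Erk-/- maturation, 634 and 804 at GV, 867 and 132 at MII and 1826 and 773 for the difference. A mean of at least 10 FPKM, with fewer genes tested, gave 1218 and 2553, 1170 and 1854, 647 and 788, 1754 and 281, and 2070 and 742 in that order. Without genes listed at 0 the lower genes numbered 3196 in wild-type maturation, and the counts were 1449 and 2220, 966 and 1183, 1980 and 428, and 2538 and 1101 in the others. Lower genes at MII numbered 1704 under median-of-ratios and 1370 under upper-quartile scaling. Depth is unknown, and no value here measures the spread between oocyte batches.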

Other observations

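Sperm-binding proteins of the egg surface were also measured. Folr4, the gene of the sperm receptor JUNO (Izumo1r in RefSeq), was at 334 FPKM (bounds 323 to 350) in wild-type GV and 330 (314 to 346) in Erk-/- GV. At MII it was at 30.2 (26.9 to 33.6) in wild type and 122 (114 to 130) in the library labelled Erk-/-. Its MII level was 9.04% (wild type) and 37.0% (Erk-/- labels) of that at GV. Cd9, the tetraspanin gene needed for sperm-egg fusion, was at 82.3, 200.1, 9.34 and 101 FPKM in wild-type GV, Erk-/- GV, wild-type MII and the MII library labelled Erk-/-. The integrin gene Itga6 was higher at MII in both genotypes (27.1, 38.4, 82.3 and 78.0 FPKM in the same order), and Itgb1 was at 7.65, 5.10, 3.66 and 17.8. Of the 5 genes of this list, 2 were lower and 2 higher at MII in wild type, beside 49.6% and 20.6% of all tested genes (median -0.89 against -0.97, and -3.01 to -0.16 over the alternatives). In the library labelled Erk-/- 4 were higher and none lower at MII, beside 31.4% and 7.43% (median 1.98 against 0.31, and 1.03 to 2.01 over the alternatives). Cd81, counted as higher in both comparisons, was listed at 0 in wild-type GV. It was at 0.173, 1.83 and 4.76 FPKM in Erk-/- GV, wild-type MII and the MII library labelled Erk-/-. Without genes listed at 0, 1 of 4 was higher and 2 lower in wild-type maturation, and 3 of 4 were higher in the comparison at MII.

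Genes of the secretory pathway and of glycosylation, through which zona proteins pass, were mixed. Of 29 tested, 12 were at least 2-fold lower and 5 higher at MII in wild type, beside 49.6% and 20.6% of all tested genes, with a median of -0.62 against -0.97 that was 0.20 under median-of-ratios scaling. In the libraries labelled Erk-/- 7 were lower and 4 higher, beside 35.6% and 22.9% (median 0.14 against -0.26). At MII 13 were higher and none lower in the library labelled Erk-/-, beside 31.4% and 7.43% (median 0.74 against 0.31), or 8 and 3 under median-of-ratios scaling (median 0.22). Pdia3, a disulfide isomerase gene, was at 157, 135, 7.07 and 58.1 FPKM in wild-type GV, Erk-/- GV, wild-type MII and the MII library labelled Erk-/-. Rpn2, of the oligosaccharyltransferase, was at 49.3 and 65.3 FPKM at GV, was listed at 0 in wild-type MII and was at 5.25 in the other MII library. Spcs1, of the signal peptidase, was at 62.7 and 26.1 FPKM at GV, was listed at 0 in wild-type MII and was at 38.9 in the other MII library.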
